A study of Mus musculus with 4 samples.

Results

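A set of 10 genes expressed from the paternal allele in mouse, Peg3, Usp29, Peg10, Sgce, Mest, Snrpn, Ndn, Plagl1, Impact and Rasgrf1, was examined for binding of CTCF in the heart. They are 10 of 21938 protein-coding genes in the annotation. The choice was by name, as known imprinted genes, and not by a value measured here, although earlier results of these data were known. A CTCF summit, the base of highest signal in a peak, was assigned to a gene when it lay in the gene body or within 30 kb of either end. This took 28 of the 54309 summits in the conservative list, the authors' list from both pools, thresholded at 0.05 on the IDR, a measure of how far replicates fail to reproduce a peak. The windows of Peg3 and Usp29 overlap, as do those of Peg10 and Sgce, because each pair shares a promoter region. The 10 genes therefore form 8 loci, and a summit in the windows of both genes of a pair was counted once.

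The tissue was heart of B6CASTF1/J females aged 2 months, animals of a first-generation cross between C57BL/6J and CAST/EiJ with no treatment or engineered allele named in the labels. Hearts were joined into 2 pools, G and H, of 2 biosamples each, and each pool was sequenced as 2 technical libraries. The pools are biological replicates of 1 condition, so the data describe where CTCF was found and how alike the pools were, and they offer no comparison between conditions. The peak lists give no read totals, which leaves the depth unknown, and no allele of origin, so a summit cannot be given to the maternal or the paternal chromosome. Peak signal is the authors' own score without a unit and is compared within a list. Heart holds several cell types, and fewer bound cells cannot be told apart from weaker binding in each cell.

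Imprinted genes carry a mark of parental origin, usually DNA methylation set in the egg or the sperm at a control region rich in CpG dinucleotides. CTCF is a zinc-finger protein that binds a recurring DNA motif and, with cohesin, anchors chromatin loops. At several of its motifs binding is blocked by methylation, and at the H19 and Igf2 locus this lets it act on 1 parental chromosome. ZFP57 is a zinc-finger protein that keeps methylation at imprinted regions by binding the methylated word TGCCGC. YY1 is another zinc-finger factor, and copies of its word GCCATNTT are known to cluster in the control region of Peg3.

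The sequences below are shown because they carry the contrasts described in what follows, and all are reference sequence of GRCm38.p6. The first pair is the gap between the annotated starts of each divergent gene pair, on the plus strand with each CpG in capitals.
Peg10-Sgce gap, chr6:4747208-4747305: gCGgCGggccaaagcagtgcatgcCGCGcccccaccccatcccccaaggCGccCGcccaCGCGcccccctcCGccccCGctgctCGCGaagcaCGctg
Peg3-Usp29 gap, chr7:6730432-6730577: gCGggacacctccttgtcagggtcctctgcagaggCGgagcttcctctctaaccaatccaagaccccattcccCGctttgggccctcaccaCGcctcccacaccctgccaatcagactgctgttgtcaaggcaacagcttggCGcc

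The next set comes from intron sequence of Peg3. The first stretch, on the minus strand, which is the strand of Peg3, holds 3 YY1 words in capitals. The second, on the same strand, lies beside the strongest Peg3 summit, in the same peak, and has a YY1 word followed by an exact CTCF core, both in capitals. The CTCF core is the fixed stretch of 12 bases at the centre of the known CTCF motif. The last, on the plus strand, lies at the Peg3 summit nearest the gene start, with a core that has 1 mismatch at its position 3, counted from the 5′ end of the core.
Peg3 YY1 words, chr7:6727831-6727991: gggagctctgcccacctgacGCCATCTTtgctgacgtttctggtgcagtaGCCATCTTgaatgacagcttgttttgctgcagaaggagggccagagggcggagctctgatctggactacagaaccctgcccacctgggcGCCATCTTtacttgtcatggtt
Peg3 YY1 word and core, chr7:6727351-6727470: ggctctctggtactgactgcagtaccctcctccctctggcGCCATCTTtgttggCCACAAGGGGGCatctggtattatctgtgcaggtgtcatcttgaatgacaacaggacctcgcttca
Peg3 core nearest the start, chr7:6729211-6729330: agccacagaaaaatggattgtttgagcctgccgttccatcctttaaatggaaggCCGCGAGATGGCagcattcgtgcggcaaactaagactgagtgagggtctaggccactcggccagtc

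The remaining sequences are from summits of Usp29 and of other loci, each on the strand of its core, with the core in capitals. They are shown because the Usp29, Plagl1, Ndn and Rasgrf1 summits have a core and the strongest Mest summit, on the plus strand and without capitals, has none.
Usp29, signal 590, minus strand, chr7:6918407-6918526: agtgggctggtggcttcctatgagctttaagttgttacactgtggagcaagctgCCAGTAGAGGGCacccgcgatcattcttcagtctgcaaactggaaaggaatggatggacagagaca
Usp29, signal 712, minus strand, chr7:6937262-6937381: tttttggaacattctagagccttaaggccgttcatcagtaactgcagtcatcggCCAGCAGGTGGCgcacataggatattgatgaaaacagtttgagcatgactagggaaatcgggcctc
Usp29, signal 558, plus strand, chr7:6940881-6941000: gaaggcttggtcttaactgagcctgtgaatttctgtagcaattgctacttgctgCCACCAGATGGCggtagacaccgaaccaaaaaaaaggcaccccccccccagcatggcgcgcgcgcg
Plagl1, signal 788, plus strand, chr10:13087343-13087462: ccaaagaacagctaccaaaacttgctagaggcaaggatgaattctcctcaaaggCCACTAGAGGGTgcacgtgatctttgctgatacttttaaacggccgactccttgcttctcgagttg
Ndn, signal 254, minus strand, chr7:62375790-62375909: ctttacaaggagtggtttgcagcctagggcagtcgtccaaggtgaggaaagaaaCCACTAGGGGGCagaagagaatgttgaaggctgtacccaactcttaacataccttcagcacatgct
Rasgrf1, signal 170, plus strand, chr9:89940573-89940692: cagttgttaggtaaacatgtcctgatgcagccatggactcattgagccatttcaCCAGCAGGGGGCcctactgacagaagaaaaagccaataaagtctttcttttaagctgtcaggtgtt
Mest, signal 562, no core, chr6:30737066-30737185: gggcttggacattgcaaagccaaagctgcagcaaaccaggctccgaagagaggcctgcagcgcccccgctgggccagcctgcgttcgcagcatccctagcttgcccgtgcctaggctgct

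CTCF was found in the window of 9 of the 10 genes, with Snrpn as the exception. Of all protein-coding genes, 83.5% had a summit in the same kind of window. The number of summits per window ran from 0 at Snrpn to 6 at Usp29, with a median of 3.50, beside a median of 4 over all protein-coding genes. Over the joined windows of 1.24 Mb the density was 22.6 summits per Mb. It was 30 per Mb over the windows of all protein-coding genes and 19.9 per Mb over chromosomes 1 to 19, X and Y.

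Promoters, taken as 1 kb on either side of any annotated transcription start (TSS), held a summit at 3 of the 10 genes, Peg10, Sgce and Mest. That is 30%, with an exact 95% binomial (Clopper-Pearson) interval of 6.67 to 65.2%, and the background over all protein-coding genes was 34.6%. Peg10 and Sgce share their promoter summit and are not independent of each other. The interval covers counting error over genes only and includes the background.

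**Figure D1:**
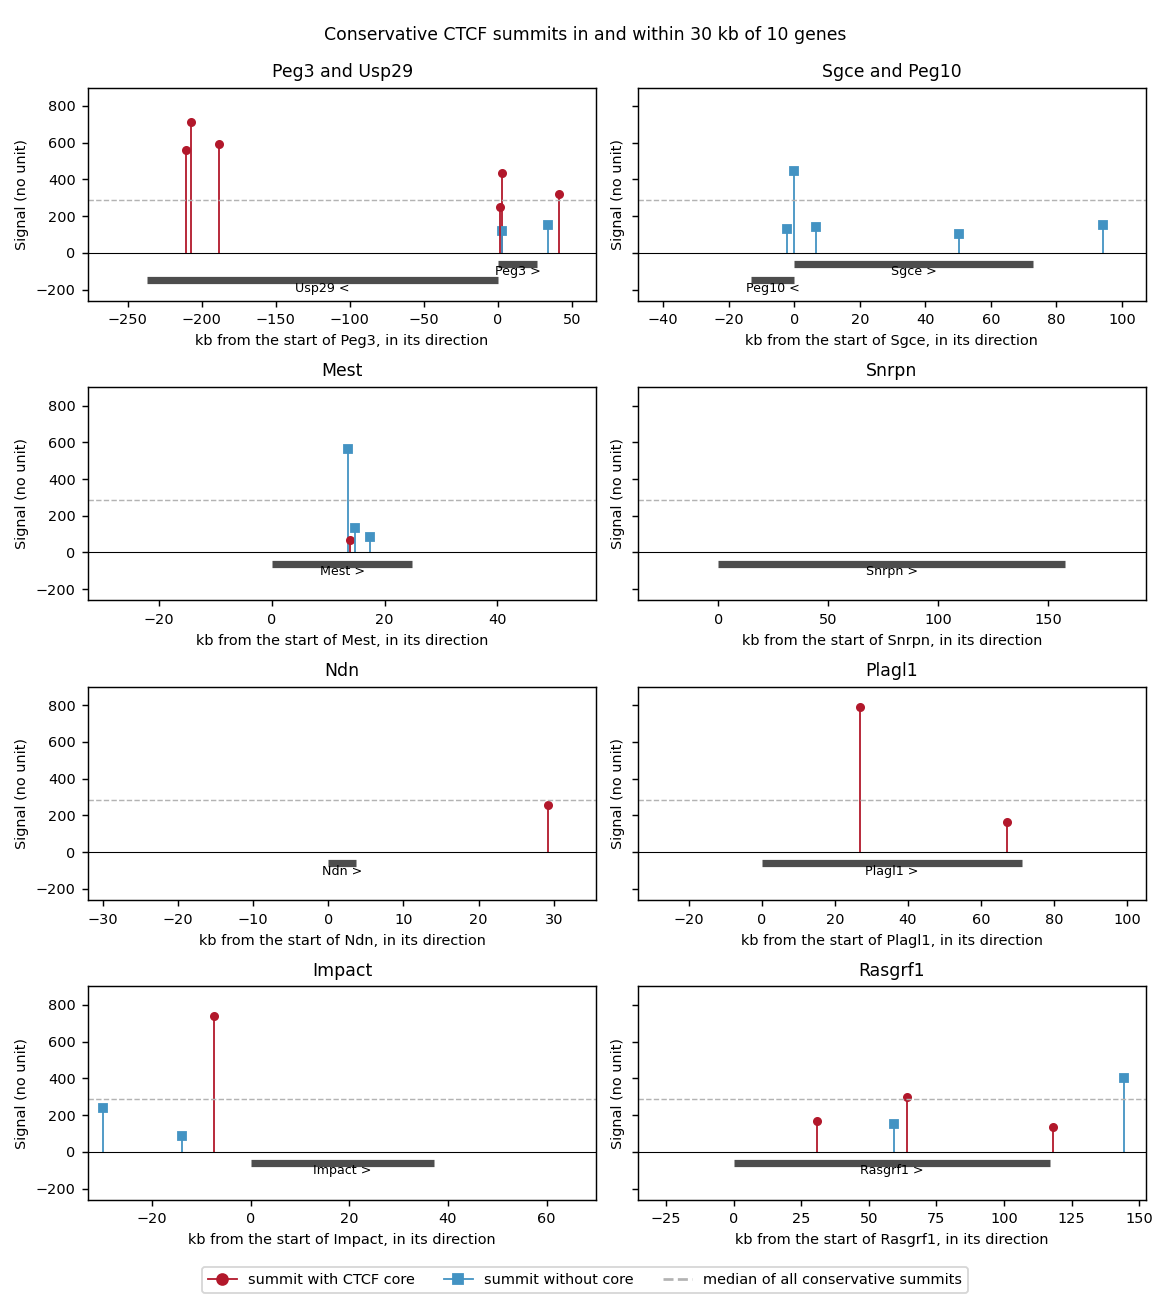
Signal (no unit) of each conservative CTCF summit against its distance in kb from the start of the gene named on the axis, in that gene's direction, with gene bodies as grey bars and arrowheads for direction. Circles mark summits with the CTCF core, squares those without; summits of Peg10 and Sgce are all squares, Usp29 has 3 circles far inside the gene, and the Snrpn window is empty.

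Peg3 encodes a zinc-finger protein and Usp29, which starts beside it on the opposite strand, encodes a deubiquitinating enzyme. Peg3 lies at chr7:6703892-6730431 and Usp29 at chr7:6730578-6967219, and their joined windows held 8 summits, 6 of them with a core. No summit was within 1 kb of a TSS of either gene, although the edge of 1 peak was, which gives Peg3 a promoter peak if any base of a peak is counted. By that count 4 of the 10 genes had one, beside 36.1% of all protein-coding genes. No conservative peak touched the gap between their starts printed above. The only candidate peak that reached into that gap, without crossing it, had its summit in a UTR exon of Peg3. Its signal was 39.9 and its IDR 0.689, far from the threshold of 0.05.

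CTCF was instead found inside the start of Peg3, at 3 summits in its intron sequence. The first, in chr7:6729133-6729431, was 1.17 kb from the gene start with a signal of 248, and the lists of the single pools gave 150 in pool G and 101 in pool H. The strongest, 2.94 kb from the start, had a signal of 434, with 241 in pool G and 192 in pool H. The last of the 3 shares an interval with it, chr7:6727151-6727933, and lay 2.74 kb from the start with a signal of 121.

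That weakest Peg3 summit differed most between the pools, with 91.9 in pool G and 31.9 in pool H. Its ratio of pool G to pool H was 2.88, the highest of the 24 member summits found in both pool lists. Of 45425 conservative summits of any strength found in both, 51, or 0.112%, had a ratio as high. The summit was singled out for its ratio, and the share was not taken over weak summits alone. Each pool gives 1 value, so the difference has no replicate check.

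The same stretch of Peg3 is dense in YY1 words. The first 5 kb of the gene held 12 copies of GCCATNTT, counted on both strands, and all 12 were on the strand of Peg3, between 0.84 and 3.12 kb from its start. Over 21938 protein-coding genes the median was 1 copy, and 13 genes, or 0.0593%, had 12 or more. Mest is also among these 13, with 17 copies after its outermost start, where no summit was found within 13.58 kb.

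The best-matching CTCF core within 100 bp of the strongest Peg3 summit stands among these words. It begins 3015 bases from the gene start, and a YY1 word begins at 3001, with 6 bases between them, as the printed sequence shows. The core lies 75.5 bp from the summit, the farthest of the 14 cores found, whose median distance was 10.5 bp. Across the whole list, 2.14% of the 35846 summits with a core had a YY1 word within 20 bases of it, and among the 14 member summits with a core the Peg3 summit was the 1 that had.

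ZFP57 words were also frequent at Peg3. Its first 5 kb held 8 copies of TGCCGC, between 0.26 and 1.9 kb from the start. Counted from the outermost start of each gene, 0.187% of genes had as many. Some inner starts of other members reached that number. The 5 kb after the Mest start at 30733454 held 12 copies. Those after the CpG-rich Mest start at 30738050 and the Snrpn start at 60005111 held 8 each. The starts of the remaining members held fewer. The Peg3 summit 1.17 kb from the gene start had a ZFP57 word within 150 bases.

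**Figure D2:**
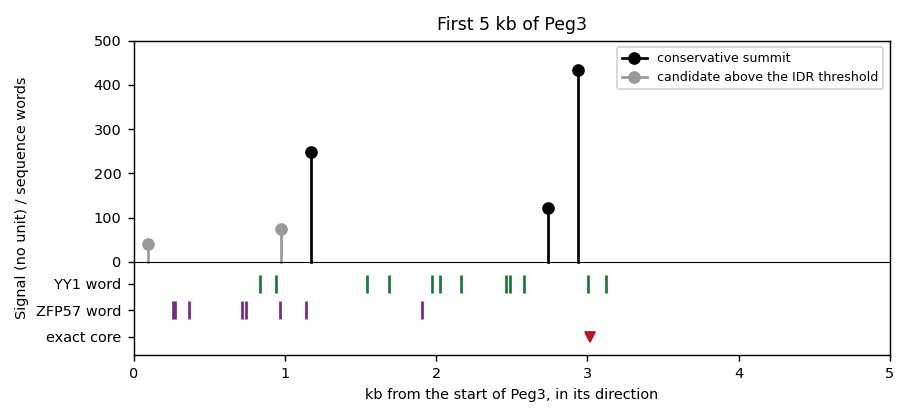
Signal (no unit) of CTCF peaks in the first 5 kb of Peg3 against distance from its start in kb, with ticks for YY1 words (GCCATNTT), ZFP57 words (TGCCGC) and a triangle for the exact CTCF core. Conservative summits (black) stand at 1.17, 2.74 and 2.94 kb with signals of 248, 121 and 434; grey points are candidate peaks with an IDR above 0.05.

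Far inside Usp29, CTCF was found at 3 strong summits that all have an exact core. They lay in introns at 187.89, 206.75 and 210.34 kb from the gene start, in chr7:6918264-6918657, chr7:6937066-6937557 and chr7:6940735-6941158. Their signals were 590, 712 and 558. The pools gave 321 and 274, 387 and 325, and 287 and 265, pool G first. Pool G was thus higher at all 3, as at 96.9% of the list's summits found in both pools. These are the strongest summits of the Peg3 and Usp29 windows, above 76.0, 88.7 and 73.2% of the conservative list in the same order. The cores of the first pair are on the minus strand and that of the last is on the plus strand.

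Downstream of Peg3 lay 2 further summits, both within 1 kb of a TSS of Zim1, a maternally expressed neighbour. The one in an intron of Zim1, chr7:6688802-6689101, had a signal of 323, with 172 in pool G and 153 in pool H, and an exact core. The other, chr7:6696575-6696798, had a signal of 149, with 89.1 and 61.9, and no core.

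Peg10, a gene derived from a retrotransposon and needed in the placenta, and Sgce, which encodes epsilon-sarcoglycan, had a CTCF summit at their shared promoter. Peg10 lies at chr6:4747306-4760517 and Sgce at chr6:4674350-4747207. The peak chr6:4747001-4747431 covers the whole gap between them, and its summit fell in a UTR exon of Sgce, 140 bp upstream of the start of Peg10. Its signal was 447, with 254 in pool G and 198 in pool H, above 64.2% of the conservative list.

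None of the 5 summits in the Peg10 and Sgce windows had a CTCF core, and none had a hit of a motif matrix learned from the peaks. Over the conservative list the core was absent from 34.0% of summits, and the matrix had a hit at 47.5% of them, beside 39.3% of the 28 members. The promoter summit lies in CpG-rich sequence, with 66.1% GC and a CpG observed-to-expected ratio of 0.722, and has 1 ZFP57 word. Of the CpG-rich summits in the list, 26.7% had a core. CpG-rich here means at least 50% GC and a ratio of at least 0.6 in the 301 bases around the summit. The gap between Peg10 and Sgce has 79.6% GC and 13 CpG in 98 bases, and the gap between Peg3 and Usp29 has 61.6% GC and 5 CpG in 146 bases.

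The other 4 summits of the Peg10 and Sgce windows were weak, between 105 and 154. An intron summit of Peg10 in chr6:4749381-4749582, 2.07 kb from a Peg10 TSS, had a signal of 128, with 74.7 in pool G and 59.5 in pool H. In Sgce, the summit in chr6:4740616-4740776, upstream of an internal Sgce TSS by 0.52 kb, had 143, with 79.0 and 57.2. The intron summit in chr6:4696790-4696896 had 105, with 58.8 and 45.4. Beyond the end of Sgce, chr6:4652826-4653015 had 154, with 85.1 and 69.0. Pool G was the higher pool at all 5 summits of the locus, as at 96.9% of the list's summits found in both pools. Of the 5, 4 were below the list median of 286.

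Mest encodes a protein of the hydrolase fold family and hosts the microRNA gene Mir335 in an intron. It lies at chr6:30723547-30748465, and all 4 of its summits were within 1 kb of a Mest TSS. For 3 of them the nearest starts were the CpG-rich ones at 30738050 to 30738055. The nearest to the last is a start at 30740782, which is not CpG-rich, and neither is the outermost start of the gene at 30723547. The strongest summit, in chr6:30736928-30737330 and 925 bp upstream of the CpG-rich start, had a signal of 562, with 318 in pool G and 246 in pool H, and no core.

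The remaining Mest summits were all below the list median. A summit 310 bp inside the CpG-rich start, in chr6:30738247-30738455, had a signal of 132, with 76.3 in pool G and 54.2 in pool H. Its CpG ratio of 1.02 was the highest of the 28, and it had 3 ZFP57 words. The summit near Mir335, in chr6:30740819-30741238, had 82.8, with 49.0 in pool G and none in the thresholded list of pool H, where the ranked list of all candidates gave 31.2.

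The weakest of all 28, with a signal of 67.7, shares the interval of the strongest Mest summit. It was in neither thresholded pool list, and only the ranked list of pool G had a summit there, at 17.3. A core with 1 mismatch lay 67.5 bp from it. With the outermost start as the single TSS of each gene, Mest had no promoter summit, which left 2 genes, Peg10 and Sgce.

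Plagl1 encodes a zinc-finger transcription factor that restrains growth. It lies at chr10:13060504-13131694 and had 2 summits, both in the gene body and both with a core. The intron summit in chr10:13087151-13087641 had the highest signal of the 28, 788, above 97.2% of the conservative list. It lay 3.29 kb upstream of the nearest of a group of CpG-rich starts, and the outermost start was 26.89 kb away. The thresholded pool lists had no summit there, but the ranked lists of all candidates gave 411 in pool G and 381 in pool H. Its core has 1 mismatch, at position 12.

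The other Plagl1 summit, in chr10:13127427-13127659, fell in a coding exon and had a signal of 165, with 98.7 in pool G and 70.1 in pool H. Its core is exact, so the weaker of the Plagl1 summits has fewer mismatches.

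Ndn encodes necdin, a protein of the MAGE family, and lies at chr7:62346569-62350262. Its only summit, in chr7:62375709-62375998, was 25.6 kb beyond the gene end in an intron of Gm32061. The signal was 254, with 152 in pool G and 105 in pool H, and the core is exact. The window ends shortly before a stronger summit of 578 that lay 32.4 kb beyond the gene end.

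Snrpn encodes a protein of the splicing machinery, and its upstream region holds the imprinting centre of the Prader-Willi and Angelman syndromes. It lies at chr7:59982495-60140219 and had no conservative summit in a window of 218 kb. Of the 1377 protein-coding genes with a window at least as long, 48, or 3.49%, had none. The nearest conservative summit lay 98.8 kb upstream of the outermost start, with a signal of 296, 157 in pool G and 138 in pool H.

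The ranked list held 3 candidate peaks in the Snrpn window. The strongest had a signal of 65.8 and an IDR of 0.145, and lay 2.81 kb upstream of the inner start at 60005111. The others had signals of 31.2 and 12.6. Binding at Snrpn was thus not detectable at the authors' threshold, and the unknown depth sets no limit on what could have been missed.

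Rasgrf1 encodes a factor that activates Ras proteins, and an element upstream of it, methylated on the paternal allele, is known to bind CTCF on the unmethylated allele. It lies at chr9:89909908-90026977 and had 5 summits, none of them upstream of the gene. The first lay 30.71 kb inside the gene, in chr9:89940492-89940747, with a signal of 170, 89.6 in pool G and 82 in pool H, an exact core and 2 YY1 words. The others in the gene body, chr9:89969159-89969382 and chr9:89973831-89974154, had 149, with 83.6 and 66.0, and 300, with 173 and 125.

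Downstream of Rasgrf1, a summit 0.931 kb beyond the gene end had a signal of 133, with 65.4 in pool G and 66.6 in pool H. It was the only one of the 24 summits with a value in both pools that was higher in pool H. The strongest Rasgrf1 summit, 403, lay in a UTR exon of Ctsh, which encodes cathepsin H, in chr9:90054241-90054644, with 227 and 182 in the pools and no core. The region from 20 to 100 kb upstream of Rasgrf1 was looked at after these values had been seen. Its conservative summits were 82.5 and 82.7 kb away, with 464 and 712, in the same interval, chr9:89826902-89827657. Whether they belong to the known element upstream of Rasgrf1 was not tested. The nearest candidate of any strength in that region lay 78.76 kb upstream, with a signal of 20.3.

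**Figure D3:**
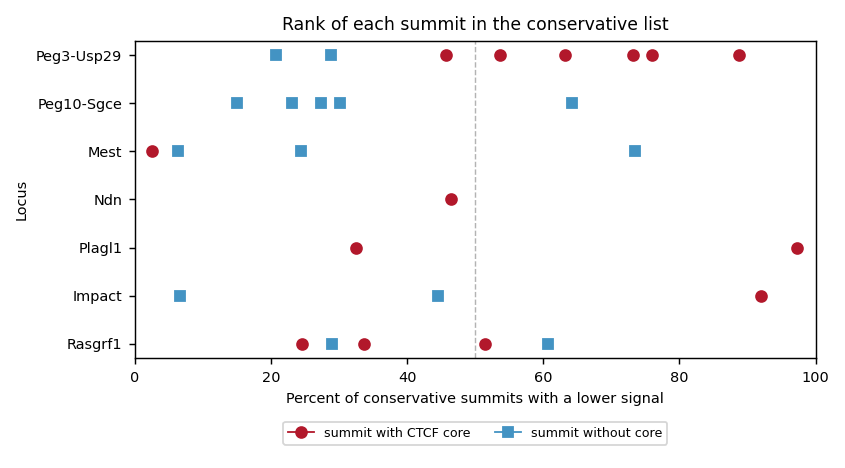
Percent of the conservative list with a lower signal than each summit, by locus, with circles for summits with the CTCF core and squares for those without. Plagl1 holds the highest summit at 97.2%, Mest the lowest at 2.55%, and the dashed line marks the middle of the list.

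Over the 28 summits the median signal was 205 and the quartiles were 132 and 437. Over the conservative list the median was 286 and the quartiles were 134 and 579. Signals at or above the list median were found at 11 of the 28, or 39.3%. Summits with a core had a median of 311 and those without 146, each over 14 summits, beside 361 and 193 in the whole list.

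The core, with up to 1 mismatch and within 100 bp of the summit, was present at 14 of the 28, or 50%, with an exact 95% binomial interval of 30.6 to 69.4%. The background over all conservative summits was 66.0%, which lies inside that interval. Exact cores were found at 9 summits, or 32.1%, beside 33.0% of the list. Cores with 1 mismatch were found at 5, or 17.9%, beside 33.0% of the list. In windows 1 kb away from the member summits 1 of 28 had a core, beside 5.55% for the whole list. Of the summits within 1 kb of any TSS, 2 of 10 had a core, and of the others 12 of 18, or 66.7%. The same shares over all conservative summits were 43.3 and 71.8%.

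Neighbouring cores in a locus pointed at each other in 3 of 8 pairs, the same way in 3 and away from each other in 2. Over all neighbouring cores in the list the shares were 24.1, 51.9 and 24.1%. The widest convergent pair spans 189 kb, from the Peg3 core nearest the start to the first of the strong Usp29 cores. That Peg3 core has 1 mismatch and its summit has no hit of the learned matrix. The pair is therefore absent when only exact cores or only matrix hits are counted.

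Most of the summits were found in each pool alone. The lists of both pools had a summit within 100 bp of 24 of the 28, or 85.7%, beside 83.6% of the whole list. The signal of pool G was higher at 23 of these 24, or 95.8%, beside 96.9% of the list, and the median ratio of pool G to pool H was 1.26, beside 1.22 over the 45425 summits of the list found in both. The ratio at the members ran from 0.982 at the summit just beyond Rasgrf1 to 2.88 in Peg3. Signals grow with depth, so the ratio is read only beside that of the list.

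**Figure D4:**
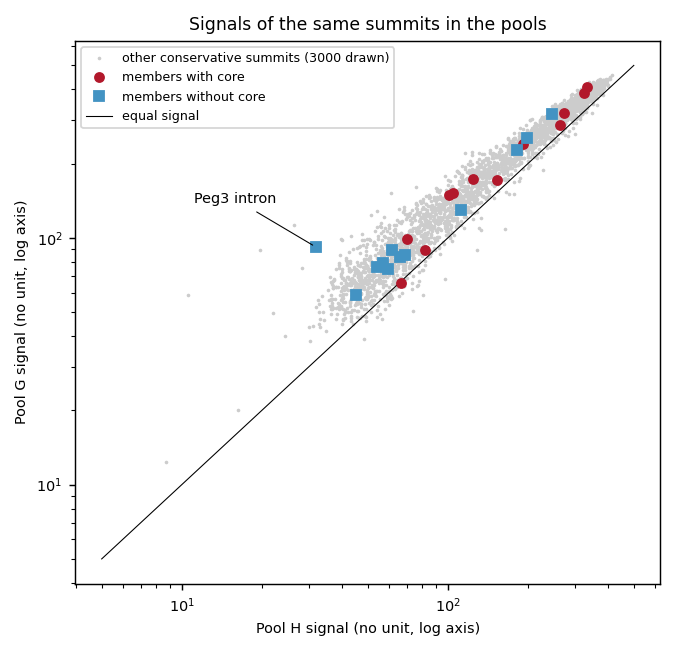
Signal (no unit, log axes) in pool G against pool H for the 24 member summits found in both lists, over grey points for other conservative summits, with a line of equal signal. Of the 24 members 23 lie above the line, and the summit just beyond Rasgrf1, with 65.4 in pool G and 66.6 in pool H, lies just below it. The labelled Peg3 intron summit, with 91.9 in pool G and 31.9 in pool H, stands farthest above the line.

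The sequence around the summits kept more CpG than that of the list as a whole. The median CpG observed-to-expected ratio in 301 bases was 0.426, with quartiles of 0.312 and 0.565, beside 0.226 with quartiles of 0.124 and 0.383 in the list. GC content was similar, with medians of 48.3 and 47.5%. The gap in CpG ratio was also seen away from promoters, with 0.418 over 18 member summits and 0.197 over 43237 in the list. Within 1 kb of a TSS the medians were 0.598 over 10 and 0.553 over 11072. These are descriptions of a small set that shares loci, without a test.

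By the full definition, 4 of the 28 summits, or 14.3%, were in CpG-rich sequence, beside 10.4% of the list. They are the shared promoter of Peg10 and Sgce, a pair at Mest and 1 near the start of Osbpl1a upstream of Impact. Summits within 1 kb of any TSS made up 35.7% of the 28 and 20.4% of the list. A CpG within the core itself was found in 2 of the 14 cores, or 14.3%, and in 5.68% of the cores in the list.

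ZFP57 words lay within 150 bases of 6 of the 28 summits, or 21.4%, with an interval of 8.30 to 41.0%, beside 6.88% of the list. The interval takes the summits as independent, although they share loci and a pair of those with the word is at Mest. It is therefore too narrow, and no test was made. All 4 CpG-rich member summits had the word, where 30.1% of the CpG-rich summits in the list did. Of the other member summits 2 of 24 had it, or 8.33%, beside 4.18%. YY1 words were found at 2 of the 28, or 7.14%, beside 6.13% of the list. A word is a match of letters and not a measured site of its factor.

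**Figure D5:**
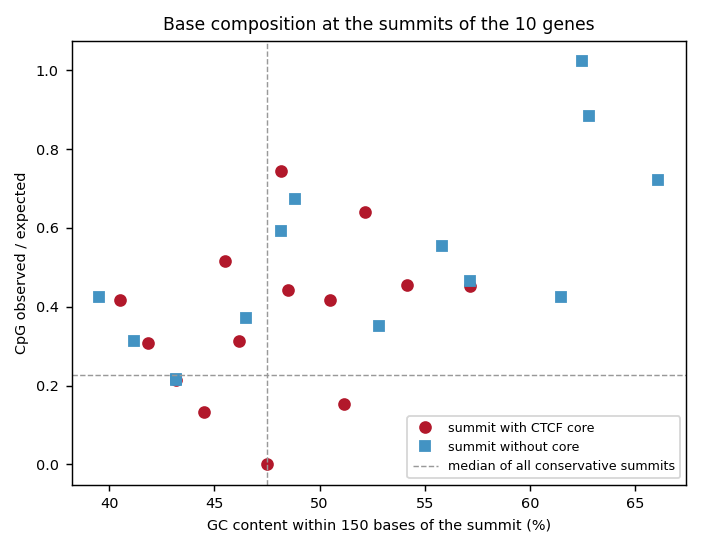
CpG observed-to-expected ratio against GC content (%) in the 301 bases around each of the 28 summits, with circles for summits with the CTCF core, squares for those without and dashed lines at the medians of the conservative list. Most points stand above the horizontal line at 0.226, and the highest, at 1.02, is the Mest summit inside its CpG-rich start.

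Impact, which encodes a regulator of the stress kinase GCN2, lies at chr18:12955852-12992950 and had 3 summits, all upstream of the gene. The strongest, in chr18:12948106-12948622 and 7.49 kb from the start, had a signal of 739, with 407 in pool G and 334 in pool H, and an exact core. It stood above 91.9% of the conservative list. A weak summit of 83.6 in chr18:12941696-12942115, within 1 kb of a TSS of Osbpl1a, had 48.2 in pool G and none in the thresholded list of pool H, where the ranked list gave 37.3.

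The farthest Impact summit, 239 in chr18:12925730-12926158, had 129 in pool G and 112 in pool H and lay in an intron of Osbpl1a. It was just inside the window, 29.9 kb from the gene, and a summit of 518 lay just outside, 30.4 kb away. The CpG-rich starts inside Impact, at 12974298 and 12974478, had no conservative summit within 25.93 kb. The strongest candidate in the gene had a signal of 53.1 and an IDR of 0.149.

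The threshold left 36 of the 64 candidate peaks in the windows of the 10 genes outside the conservative list, or 56.2%, beside 67.3% of all candidates. Their signals reached 73.5, for a candidate 0.97 kb from the start of Peg3. The member nearest the threshold on its inner side was the Mest summit near Mir335, with a scaled IDR of 582 where 540 stands for the threshold. The nearest on its outer side was the Snrpn candidate of 65.8, with a scaled IDR of 348.

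Other imprinted genes were counted in the same way from lists taken from general knowledge. Of 24 further paternally expressed genes found in the annotation, 5 had a summit within 1 kb of a TSS, or 20.8% with an interval of 7.13 to 42.2%. They were Gab1 with 573, Peg12 with 568, Peg13 with 526, Airn with 134 and Sfmbt2 with 105. Of 31 maternally expressed genes, 12 had one, or 38.7% with an interval of 21.8 to 57.8%. Among these Ppp1r9a had 792, Asb4 743 and Grb10 640, and the lowest was Ascl2 with 94.3. Zim1 is also among them, and its summit of 323 is counted with the 28 member summits too. Genes imprinted only in part or in some tissues were kept in the lists, among them Grb10, Copg2 and Trappc9 in the maternal list. Whether the genes of either list are imprinted in heart was not examined. The intervals of both lists include the 34.6% of all protein-coding genes, but the lists also hold noncoding genes and so are not like that background. Among their protein-coding genes, 3 of 18 paternally expressed (16.7%) and 11 of 27 maternally expressed (40.7%) had a promoter summit.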

How the data were processed

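CTCF ChIP-seq peak lists from 2 heart pools were analysed, 7 of the 8 deposited, on mm10 per the labels. Neither the aligner nor the tool that called peaks was given in the sources used here, and depth is unknown. The authors deposited each peak's signal as a score without a unit, the IDR as a scaled score (540 for 0.05, 830 for 0.01), and the −log10 of the global IDR. Lists were tied to pools through the deposited readme texts. The authors also used a control alignment, not analysed here.

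The genome was GRCm38.p6 with GENCODE M21 annotation. Summits were joined to genes, pool summits were matched within 100 bp, and promoters were 1 kb either side of every annotated TSS. The CTCF core was searched with up to 1 mismatch within 100 bp, and a matrix with 4 flanking bases and 3 rounds was learned on odd autosomes outside soft-masked sequence. Words were counted in 301 bases. Named genes were all 10 members with their strongest, nearest and promoter summits. The members, lists and alternatives were chosen with earlier results of these data known, so no test was made. Scans were tested on simulated data. Intervals came from scipy 1.17.1, tables from pandas 2.3.3 and numpy 2.4.6, and plots from matplotlib 3.10.9, under Python 3.11.15.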

Additional observations from a re-analysis of the deposited data

How the results depend on the processing

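Counts of summits, genes, cores and pairs depended on the settings as follows. With all candidates of the ranked list there were 64 summits, and with a flank of 100 kb there were 51, in place of 28. Promoters of 5 kb held a summit at 6 genes, adding Peg3, Usp29 and Plagl1, beside 53.8% of all protein-coding genes, and counting any base of a peak within 1 kb gave 4, adding Peg3. With up to 2 mismatches the core was found at 75.0% of the summits, beside 89.5% of the list and 28.4% of windows 1 kb away. With exact cores there were 0 convergent and 1 divergent pairs, and with the learned matrix 1 divergent pair. Without pool H or without pool G, the single lists gave 24 to 27 summits, 3 promoter genes, core shares of 44.4 to 50% and 19.3 to 21.8 summits per Mb. The median signal was 168 with a flank of 10 kb, 239 at an IDR of 0.01 and 403 with a flank of 100 kb. The cause of these shifts was not tested. No paired analysis was possible because the pools are replicates of 1 condition and no result came from a test. Unknown depth limits what weak or absent peaks can show.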

Other observations

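Between 30 and 100 kb from the 10 genes lay 23 further conservative summits, of which 17, or 73.9%, had a core, beside 66.0% of the list. Of these, 6 lay between 32.4 and 86.3 kb downstream of Ndn, with signals from 160 to 706, and each had a core with up to 1 mismatch. Upstream of Plagl1, summits of 438, 721 and 530 lay at 41.8, 43.8 and 63.2 kb, also with cores. The 6 without a core lay near Peg3 and Usp29 (signal 627), Snrpn (296), Impact (542, 518 and 208) and Rasgrf1 (663). Around Peg10 and Sgce, the only further summit within 100 kb, 39.1 kb beyond Peg10, had a signal of 83.3 and an exact core, and was found in the list of pool H at 35.6 but not in that of pool G.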
